A study of Mus musculus with 6 samples.

Results

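The caudal transcription factors Cdx1, Cdx2 and Cdx4 and 7 genes that make, carry, sense or destroy retinoic acid were followed by bulk poly(A) RNA-seq in differentiating mouse embryonic stem cells. The retinoic acid genes were Aldh1a2, Cyp26a1, Rara, Rarb, Rarg, Crabp1 and Crabp2. These 10 genes were taken by symbol from the deposited count matrix of 55487 genes, and all 10 were among the 17315 genes with enough reads to test. Cdx1 and Cdx4 passed that filter only through their wild-type libraries. The study compared stem cells established from Ts1Cje mice with stem cells from wild-type mice, with 3 libraries of each. Ts1Cje is a Down syndrome model with an extra copy of a distal segment of chromosome 16, and none of the 10 genes lies on chromosome 16. Both genotypes were kept with LIF and serum replacement and then spent 4 days with VEGF, activin A, BMP-4 and FGF2, a treatment meant to give primitive macrophage progenitors. The labels call the libraries of a genotype lots and do not say whether a lot is a separate culture, so the p-values measure the spread between these libraries, which may be technical. The labels give no number of stem cell lines per genotype, so genotype and cell line cannot be told apart.

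Caudal factors are homeodomain proteins that the early embryo makes at its posterior end, where WNT and FGF signals are also found, and they are known as regulators of the Hox genes and of yolk sac blood formation. Retinoic acid is made from vitamin A in steps, the last of which is the oxidation of retinaldehyde by enzymes such as Aldh1a2. It binds nuclear receptors (RARs) that sit on DNA with retinoid X receptors, and Cyp26 enzymes oxidise it for removal. In the embryo, Aldh1a2 and Cyp26a1 are known for working in neighbouring territories of the trunk and tail, as source and sink.

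The promoter sequences below were chosen because they carry short sequence matches that some of the genes share. All are from RefSeq on GRCm38.p6, and each is the 150 bases just before an annotated start, written 5′ to 3′ on the strand of the gene. Eight-base runs in capitals are matches to the octamer ATGCAAAT, a sequence known as bound by POU-domain factors. The octamer was added to the search after the sequences had been read.
Cdx2, chr5:147307250-147307399, minus strand: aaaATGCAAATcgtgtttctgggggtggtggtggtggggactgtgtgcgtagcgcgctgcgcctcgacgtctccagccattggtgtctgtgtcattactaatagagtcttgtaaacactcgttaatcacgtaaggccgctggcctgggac
Cdx4, chrX:103321248-103321397, plus strand: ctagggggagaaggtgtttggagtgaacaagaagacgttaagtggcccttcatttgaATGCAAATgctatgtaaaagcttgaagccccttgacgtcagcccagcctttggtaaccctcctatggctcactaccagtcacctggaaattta
Aldh1a2, chr9:71215639-71215788, plus strand: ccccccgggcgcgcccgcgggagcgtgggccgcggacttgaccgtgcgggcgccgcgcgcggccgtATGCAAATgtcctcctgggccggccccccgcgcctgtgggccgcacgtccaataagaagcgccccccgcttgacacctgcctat
In the next pair the capitals mark a DR5, the direct repeat of retinoic acid response elements. It was searched on both strands as a pair of sites with 5 bases between them, where each site is AGGTCA or one of its variants. The variants taken were AGTTCA and GGTTCA, to which GGGTCA was added as the remaining form.
Cyp26a1, chr19:37697658-37697807, plus strand: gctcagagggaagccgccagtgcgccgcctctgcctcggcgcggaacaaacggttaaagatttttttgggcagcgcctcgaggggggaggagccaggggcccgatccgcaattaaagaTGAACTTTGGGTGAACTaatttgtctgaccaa
Rarb, chr14:16575477-16575626, minus strand: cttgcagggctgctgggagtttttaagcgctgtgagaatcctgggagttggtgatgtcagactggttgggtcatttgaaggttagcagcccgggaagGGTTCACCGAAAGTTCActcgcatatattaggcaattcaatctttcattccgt

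A RefSeq promoter window of 250 bases before to 50 after the start was searched for 8 of the 10 genes. Cdx1 was left out of the search and Crabp2 had no window, so the matches below say nothing of either. The octamer lay at −147 to −140 in Cdx2, at −93 to −86 in Cdx4 and at −84 to −77 in Aldh1a2, counted from the start and always on the strand of the gene. Of 32851 promoters in the table, 570 (1.74%) held it on either strand. The Cyp26a1 match to DR5 read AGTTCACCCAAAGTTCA on the opposite strand at −32 to −16, and the Rarb match read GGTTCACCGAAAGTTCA at −53 to −37. A DR5 was found in 32 promoters (0.0974%). Repeats of the same sites with 2 bases (DR2, 0.268% of promoters) or 1 base (DR1, 0.222%) between them were in none of the 8 genes' windows, nor was the caudal motif TTTATG (11.9% of promoters). The TCF/LEF motif, CTTTGA or CTTTGT, was in 31.2% of promoters and in 1 of the 4 annotated starts of Rara only among these genes. A match describes letters in a window and is no evidence of binding. The 250 bases before the start also differed in base composition. For Aldh1a2 they were 77.6% G and C with 40 CpG dinucleotides, more than in 98.7% of promoters. For Cdx4 they were 48.4% G and C with 5 CpG dinucleotides.

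Libraries held 16577065 to 19010856 counts. The first principal component (79.1% of variance) separated the genotypes, and wild-type library 1 lay at −50.0 on it, against −72.4 and −73.0 for the other wild-type libraries. The extra segment was visible in the data: of 76 tested genes there, 48 were higher and 6 lower in Ts1Cje, and the median dosage was 0.49 ± 0.03 on the log2 scale against 0.00 ± 0.01 in wild-type (SD, n = 3 each, 2-sided exact permutation p = 0.1, the smallest that 3 against 3 libraries allow). Across the genome 7579 of 17315 genes (43.8%) differed between the genotypes by edgeR's quasi-likelihood test at a Benjamini-Hochberg adjusted p of 0.05, so a call on 1 gene is common here. Of 12 macrophage markers, Ptprc, Cx3cr1 and Fcgr1 had 0 counts in all 6 libraries, 6 others had at most 6 counts in any library, and Csf1r (245 to 385 counts), Cd68 (70 to 183) and Mrc1 (15 to 44) were present in every library. Of these 3, Cd68 rose (0.80 ± 0.28, adjusted p = 0.0426). Markers of other cell types differed between the genotypes. The summed CPM (counts scaled to library size) of the lateral and extraembryonic mesoderm markers was 1282 to 1857 in wild-type and 119 to 195 in Ts1Cje, with 10 of 11 genes lower. That of the endoderm markers was 404 to 476 and 1342 to 1740, with 14 of 14 higher. Pluripotency markers summed to 126 to 392 CPM in wild-type and 679 to 1022 in Ts1Cje (6 of 10 higher), and primed epiblast markers to 260 to 387 and 1265 to 1691 (6 of 7 higher). Hemogenic endothelium markers summed to 631 to 724 and 78.9 to 171, with 7 of 9 tested lower and 1 higher. In bulk RNA, fewer cells of a type and less RNA per cell cannot be told apart, and the part of these shifts in the results that follow was not tested.

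Of the 10 genes, 6 fell in Ts1Cje and 0 rose, against 20.5% lower and 23.3% higher among all tested genes. Their median log2 fold change was −1.84, against −0.01 over all tested genes. The genes that fell were Cdx1, Cdx2, Cdx4, Aldh1a2, Crabp1 and Crabp2, and for the same 6 the libraries of the genotypes did not overlap. Among all tested genes, 55.2% showed no overlap, 26.4% in the direction of lower values in Ts1Cje. Of these 6, Cdx1, Cdx2, Cdx4, Aldh1a2 and Crabp1 fell by more than 2 on the log2 scale, a drop called in 473 tested genes (2.73%). Cdx1 and Cdx4 passed the filter through wild-type alone, so only a fall could be called for them in these counts. Cyp26a1 and the receptors Rara, Rarb and Rarg did not pass the test.

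**Figure D1:**
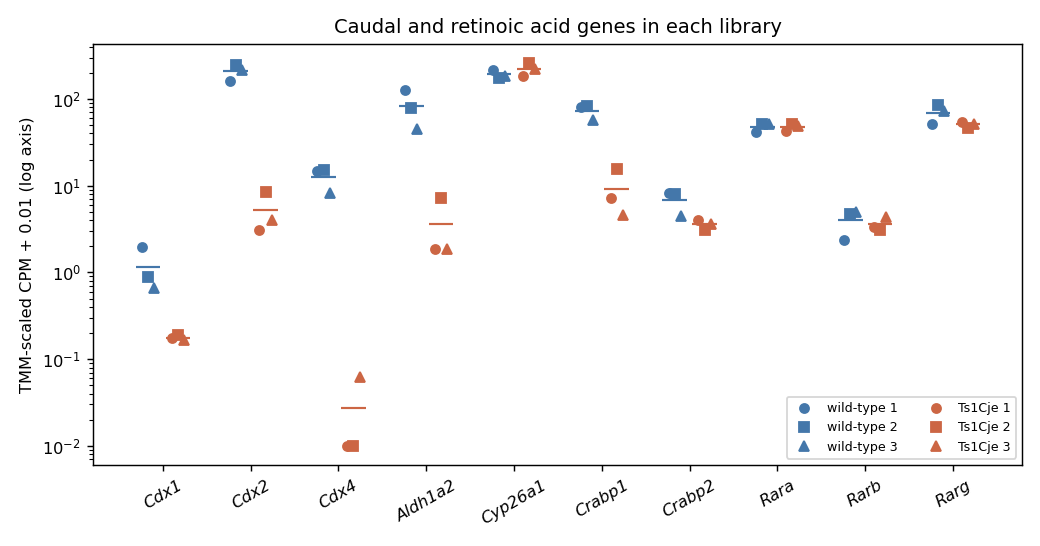
TMM-scaled CPM plus 0.01 on a log axis for the 10 genes, with 1 marker per library and wild-type and Ts1Cje libraries side by side. Cdx4 sits at the bottom of the axis in Ts1Cje, where its counts were 0, 0 and 1, while the Cyp26a1, Rara, Rarb and Rarg markers overlap between the genotypes.

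Among the caudal factors, Cdx2 was the most abundant. Cdx2 (ENSMUSG00000029646; mm10, chr5:147300805-147307270, minus strand), which is also known for its role in the trophectoderm, was at 160, 248 and 215 CPM in the wild-type libraries and at 3.07, 8.52 and 4.04 CPM in the Ts1Cje libraries. Every Ts1Cje library was far below every wild-type library, and Ts1Cje library 2 was the highest of its group. The log2 fold change was −5.33 ± 0.40 (SE; adjusted p = 0.000277), or 208 ± 44.5 against 5.21 ± 2.91 CPM (SD, n = 3 each). By most negative fold change, Cdx2 ranked 27 and Aldh1a2 ranked 52 of 17315 tested genes.

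Cdx4 (ENSMUSG00000031326; chrX:103321398-103330592, plus strand), a caudal factor known for acting with Cdx1 and Cdx2 on the Hox genes of blood progenitors, had 274, 279 and 151 counts in wild-type and 0, 0 and 1 counts in Ts1Cje. It was thus almost undetected in Ts1Cje, with a single read in library 3. Counts pooled over the libraries of a genotype and scaled to their summed size were 690 times higher in wild-type. The 95% exact binomial interval of 123 to 27285 covers counting error only. The fitted log2 fold change of −8.97 ± 0.56 (adjusted p = 2.99e-06) rests on the prior count and is no bound: it was −10.85 without Ts1Cje library 3 and −4.36 with limma-trend on log2(TPM + 1). In wild-type, library 3 held 8.28 CPM and the other libraries 14.8 and 15.1 CPM.

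Cdx1 (ENSMUSG00000024619; chr18:61018862-61036199, minus strand), the caudal factor best known for responding to retinoic acid and WNT, was close to the limit of detection, with 36, 16 and 12 counts in wild-type and 3 in each Ts1Cje library. The groups did not overlap, and wild-type library 1 held 2.96 times the CPM of library 3. Cdx1 fell by 2.75 ± 0.59 on the log2 scale (adjusted p = 0.00405). Without wild-type library 1, the log2 fold change of Cdx1 was −2.15 (adjusted p = 0.0133).

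Per length, the 3 caudal genes together came to 261, 380 and 313 TPM (reads scaled to transcript length and library size) in wild-type and 4.63, 12.7 and 6.14 TPM in Ts1Cje. Cdx2 made up 92.5 ± 3.18% of that sum in wild-type and 94.9 ± 2.12% in Ts1Cje. The share of Cdx4 was 6.75 ± 2.64% in wild-type and 0.468 ± 0.811% in Ts1Cje. These shares are descriptions and were not tested, and in Ts1Cje that of Cdx4 rests on 1 read.

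Among the genes of retinoic acid synthesis and breakdown, Aldh1a2 fell and Cyp26a1 did not pass the test. Aldh1a2 (ENSMUSG00000013584; chr9:71215789-71296243, plus strand), the retinaldehyde dehydrogenase that supplies most retinoic acid to the early embryo, was at 127, 78.9 and 45.2 CPM in wild-type and 1.86, 7.21 and 1.84 CPM in Ts1Cje. The groups were well apart although each spread widely, by 2.80 times in wild-type and 3.93 times in Ts1Cje, where library 2 was the highest. The log2 fold change was −4.55 ± 0.71 (adjusted p = 0.00541). Without Ts1Cje library 2, Aldh1a2 was at −5.49 (adjusted p = 0.00341). The other enzymes of the family were low: Aldh1a1 had 0, 1 and 0 counts in wild-type and 22, 7 and 8 in Ts1Cje, Aldh1a3 had 2 to 6 counts in each library, and neither passed the filter. In TPM, Aldh1a1 averaged 0.443 ± 0.291 in Ts1Cje and Aldh1a2 5.22 ± 4.51.

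Cyp26a1 (ENSMUSG00000024987; chr19:37697798-37701536, plus strand), the cytochrome that oxidises retinoic acid and is itself a known retinoic acid target, was at 217, 172 and 186 CPM in wild-type and 186, 258 and 220 CPM in Ts1Cje. The libraries of the genotypes overlapped. The log2 fold change of 0.21 ± 0.13 did not pass the test (adjusted p = 0.234). With no filter on low counts the same size of change passed (0.21, adjusted p = 0.0216). The ratio of Aldh1a2 TPM to Cyp26a1 TPM, which is taken within a library and so does not move with library scaling, was 0.511, 0.401 and 0.213 in wild-type and 0.00880, 0.0244 and 0.00730 in Ts1Cje. The ratio was lower in every Ts1Cje library than in any wild-type library, and it was not tested. The remaining breakdown enzymes were low. Cyp26b1 held 39, 19 and 29 counts against 13, 9 and 9 (−1.45 ± 0.40), a fall that was not called without wild-type library 1 (adjusted p = 0.0534), Ts1Cje library 2 (0.0506) or Ts1Cje library 3 (0.0617). Cyp26c1 held 149, 157 and 213 counts against 102, 151 and 130 (−0.40 ± 0.22) and did not pass.

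The 3 retinoic acid receptors were measured at overlapping levels in the genotypes. Rara (ENSMUSG00000037992; chr11:98927818-98974942, plus strand) was at 41.5, 50.7 and 51.9 CPM in wild-type and 43.1, 50.9 and 48.3 CPM in Ts1Cje. Its libraries interleaved, with a log2 fold change of −0.02 ± 0.11 (adjusted p = 0.907). Rarg (ENSMUSG00000001288; chr15:102234938-102257517, minus strand) was at 50.7, 84.2 and 73.0 CPM in wild-type and 54.8, 46.2 and 52.0 CPM in Ts1Cje. Wild-type library 1 lay within the Ts1Cje range and the other wild-type libraries above it. The log2 fold change of Rarg was −0.44 ± 0.17 (adjusted p = 0.0741). Without wild-type library 1 it was −0.63 (adjusted p = 0.000352), and it also passed with DESeq2 (−0.45, adjusted p = 0.0209) and with no filter on low counts (−0.45, adjusted p = 3.18e-05).

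Rarb (ENSMUSG00000017491; chr14:16430839-16819156, minus strand), the receptor gene best known as a retinoic acid target, was low at 2.33, 4.76 and 4.93 CPM in wild-type and 3.29, 3.10 and 4.30 CPM in Ts1Cje. The Ts1Cje values lay between the wild-type values, and the log2 fold change was −0.17 ± 0.30 (adjusted p = 0.692). Rarb shares 4624 bases with Top2b on the opposite strand, the counting strand is not given in the sources used here, and Top2b was far more abundant (12914 against 8384 counts over the libraries, log2 fold change −0.59, adjusted p = 3.85e-05), so the Rarb counts are uncertain. The receptors together came to 71.7, 104 and 94.0 TPM in wild-type and 74.5, 75.6 and 77.7 TPM in Ts1Cje. Rarg made up 57.6 ± 3.40% of that sum in wild-type and 50.9 ± 4.08% in Ts1Cje, Rara 39.7 ± 3.77% and 46.2 ± 4.15%, and Rarb at most 3.39% in any library.

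The DR5 printed above for Cyp26a1 and Rarb was thus held by genes whose levels were not called. The 32 promoters with a DR5 belong to 31 genes, of which 6 were tested. Blvrb and Cfap45 rose, Prokr2 and Syndig1 fell, and Cyp26a1 and Rarb did not pass. The octamer printed for Cdx2, Cdx4 and Aldh1a2 was in promoters of 191 tested genes, of which 59 (30.9%) rose and 43 (22.5%) fell, with a median log2 fold change of 0.09. The share that fell was near the 20.5% of all tested genes, and the share that rose was above their 23.3%. Neither difference was tested.

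Both cytosolic carriers of retinoic acid fell, by different amounts. Crabp1 (ENSMUSG00000032291; chr9:54764748-54773110, plus strand), which binds retinoic acid in the cytoplasm, was at 79.9, 81.9 and 57.4 CPM in wild-type and 7.18, 15.7 and 4.57 CPM in Ts1Cje. The groups did not overlap, and Ts1Cje library 2 was again the highest of its group. The log2 fold change was −3.01 ± 0.46 (adjusted p = 0.00414), and without Ts1Cje library 2 it was −3.64 (adjusted p = 6.18e-05). Crabp2 (ENSMUSG00000004885; chr3:87948666-87953376, plus strand), the carrier known for passing retinoic acid to the receptors, was at 8.12, 7.96 and 4.44 CPM in wild-type and 4.05, 3.04 and 3.62 CPM in Ts1Cje. The groups did not overlap, but wild-type library 3 was close to the highest Ts1Cje library. The log2 fold change of Crabp2 was −0.93 ± 0.26 (adjusted p = 0.0162). It was not called without wild-type library 2 (−0.81, adjusted p = 0.0696) or without Ts1Cje library 2 (−0.83, adjusted p = 0.0590). Of the summed TPM of both carriers, Crabp1 held 94.7 ± 0.705% in wild-type and 77.2 ± 11.2% in Ts1Cje.

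**Figure D2:**
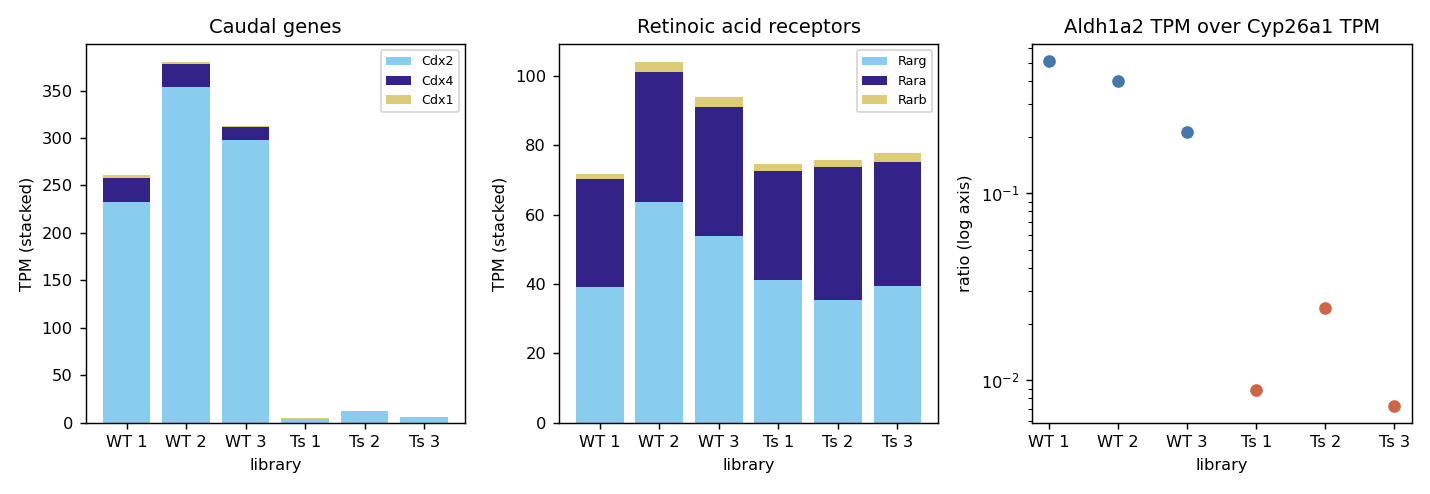
Stacked TPM per library of the caudal genes and of the receptors, and the ratio of Aldh1a2 TPM to Cyp26a1 TPM on a log axis. The caudal sum falls from 261 to 380 TPM in wild-type to 4.63 to 12.7 TPM in Ts1Cje and is almost all Cdx2, while the receptor sum keeps to 71.7 to 104 TPM in all 6 libraries.

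Ordered by TPM, wild-type cells held Cyp26a1 (311 ± 42.6), Cdx2 (295 ± 60.6) and Crabp1 (293 ± 59.7) at levels whose libraries overlapped. Aldh1a2 followed at 119 ± 60.8, apart from Crabp1 and overlapping with Rarg (52.1 ± 12.4). Rara (35.3 ± 3.54) stood apart from both its neighbours, Cdx4 (20.9 ± 6.67) and Crabp2 (16.7 ± 5.35) overlapped, and Rarb (2.43 ± 0.852) and Cdx1 (2.14 ± 1.33) were lowest and overlapped. In Ts1Cje, Cyp26a1 (361 ± 64.0 TPM) stood alone at the top. Rarg (38.6 ± 2.86), Crabp1 (37.0 ± 23.9) and Rara (35.1 ± 3.39) came next without separation. Crabp2 (8.71 ± 1.14), Cdx2 (7.48 ± 4.27), Aldh1a2 (5.22 ± 4.51) and Rarb (2.18 ± 0.391) formed a chain in which each overlapped with the next, and Cdx1 (0.308 ± 0.0233) and Cdx4 (0.0287 ± 0.0497) lay below them.

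The genes that deliver retinol and its products gave a mixed picture. Of 19 genes listed for retinoic acid supply, 11 were tested, of which 6 rose, 3 fell and 2 did not pass, with a median log2 fold change of 0.42. For this list and those that follow, the shares among all tested genes were 23.3% higher and 20.5% lower. Dhrs3, which reduces retinaldehyde back to retinol, rose from 28, 24 and 18 counts to 167, 116 and 199 (2.80 ± 0.26), without overlap. Stra6, the membrane receptor for retinol carried by its binding protein, rose by 1.54 ± 0.18 and the reductase Dhrs4 by 0.92 ± 0.17. The carotenoid-cleaving enzyme Bco1 had 0, 1 and 0 counts in wild-type and 27, 9 and 17 in Ts1Cje. Bco1 passed the filter through Ts1Cje alone, so only a rise could be called for it. The retinol dehydrogenase Rdh11 fell by 0.42 ± 0.09. Rbp4 and Fabp5 also rose, and Adh5 fell. Rbp4 was not called when any 1 of the wild-type libraries was left out or with no filter, and Adh5 was not called without wild-type library 2 or Ts1Cje library 3. Rdh10, the dehydrogenase of the step before Aldh1a2 in the embryo, was at 0.25 ± 0.12 and did not pass.

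Retinoid X receptors and receptor cofactors, 13 genes that were all tested, moved both ways: 3 rose, 6 fell and 4 did not pass, with a median of −0.11. The share that rose was near the 23.3% of all tested genes, and the share that fell was above their 20.5%. Rxra, a common partner of the RARs, was at −0.01 ± 0.08. Nrip1, a corepressor, rose by 0.54 ± 0.11, and the coactivators Ncoa2 and Med1 fell by 0.31 ± 0.06 and 0.32 ± 0.07. Rxrg, a retinoid X receptor gene, rose by 1.74 ± 0.55 (adjusted p = 0.0377) and the coactivator Ncoa3 by 0.32 ± 0.11 (adjusted p = 0.0391). The count that rose dropped to 1 without wild-type library 2, Ts1Cje library 2 or Ts1Cje library 3, and the count that fell dropped to 3 without wild-type library 2, Ts1Cje library 1 or Ts1Cje library 3 and with limma-trend on TPM.

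Known retinoic acid targets moved both ways. Of 16 listed genes 12 were tested, and 6 fell, 3 rose and 3 did not pass, with a median of −0.89. Hoxb1 (2188, 1705 and 1398 counts against 103, 280 and 51) fell by 3.54 ± 0.66, without overlap between the groups. The homeodomain cofactors Meis2 and Meis1 fell by 2.39 ± 0.24 and 1.54 ± 0.18, and Hoxb4 by 1.93 ± 0.34. Dhrs3 and Stra6, which rose, stand in both this list and that for supply.

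**Figure D3:**
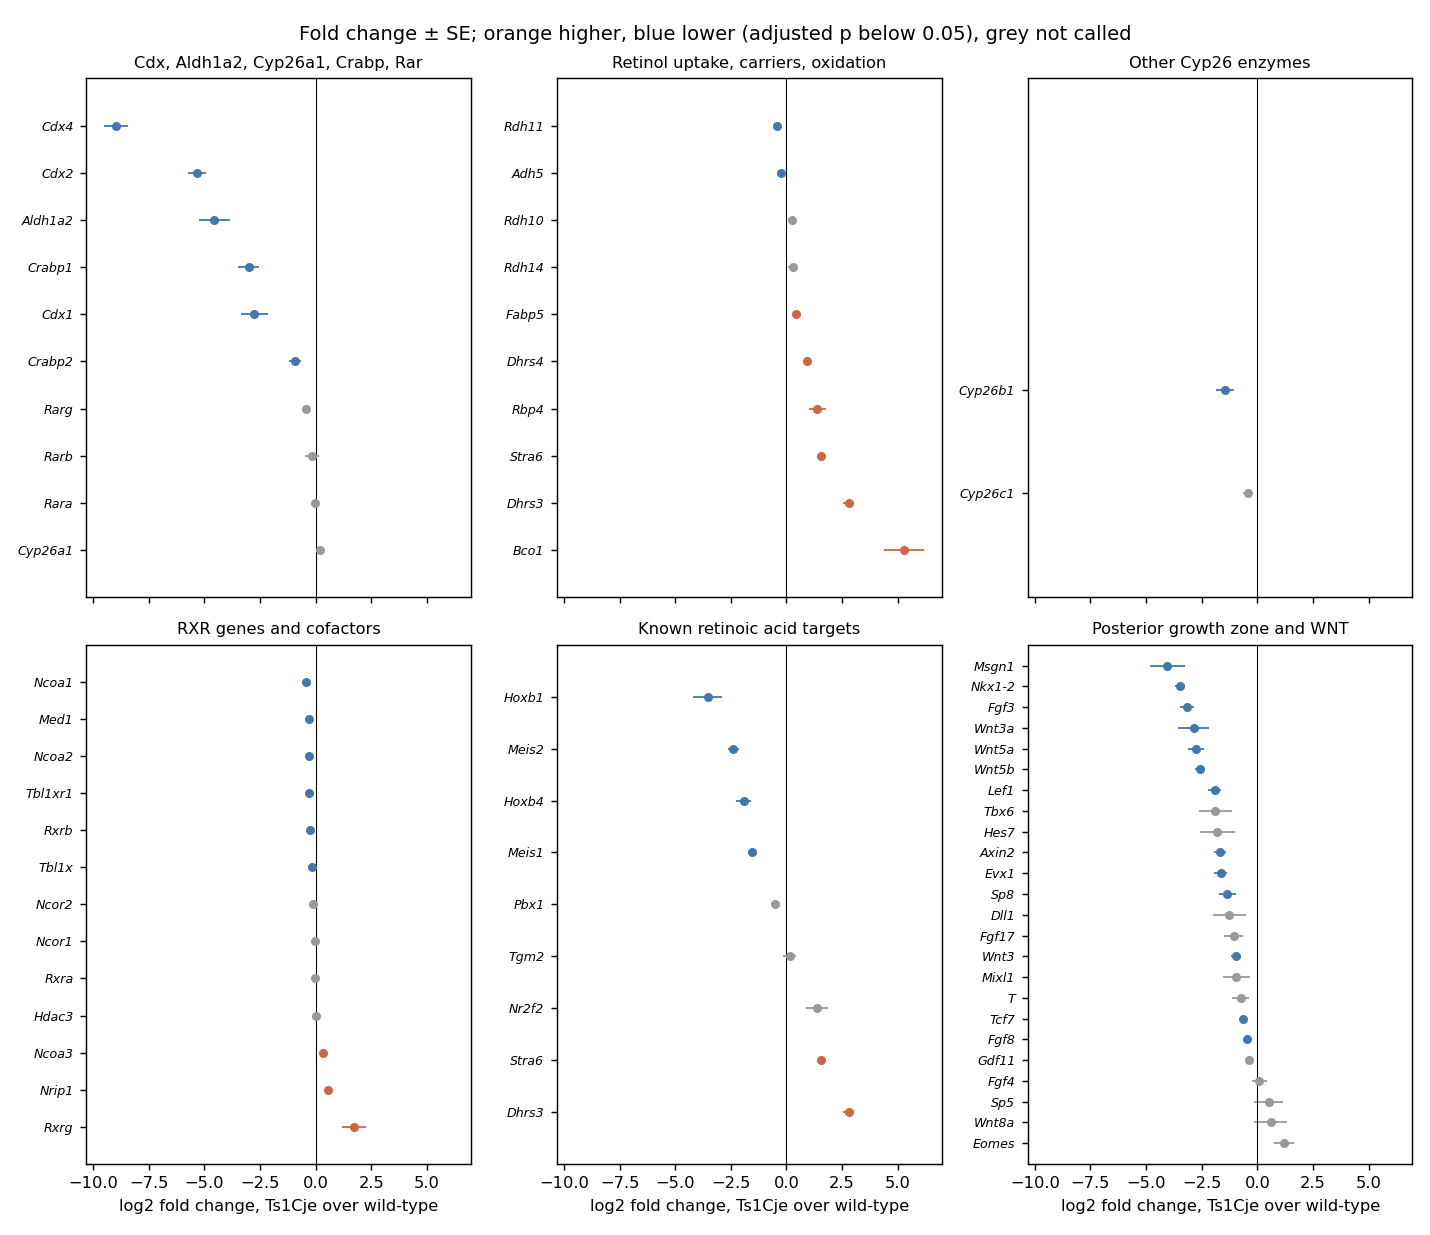
Log2 fold change of Ts1Cje over wild-type with its SE for tested genes of the pathway lists, in orange where higher, in blue where lower and in grey where the adjusted p missed 0.05. The posterior growth zone genes that were called are all to the left of 0, whereas the supply genes lie on both sides.

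The genes around the caudal factors in the posterior growth zone mostly fell or did not pass. Of 24 listed genes, all tested, 13 fell, 0 rose and 11 did not pass, with a median of −1.31. Nkx1-2, which marks the progenitors of the caudal epiblast, was at 445, 626 and 569 counts in wild-type and 65, 40 and 39 in Ts1Cje, with no overlap (−3.48 ± 0.22). The ligands Fgf3 (−3.15 ± 0.31), Wnt5a (−2.76 ± 0.34) and Wnt5b (−2.57 ± 0.22) fell, as did the WNT effector Lef1 (−1.92 ± 0.29) and the WNT feedback gene Axin2 (−1.67 ± 0.28). Brachyury (T), the mesoderm factor of the streak, was at 6777, 3194 and 2908 counts against 2550, 2771 and 2155. Only wild-type library 1 was far above the Ts1Cje libraries, and T did not pass (−0.74 ± 0.38, adjusted p = 0.183). Eomes, of the early streak, was at 3074, 1074 and 1409 counts against 4454, 4534 and 3431. The Eomes groups did not overlap, but its difference did not pass (adjusted p = 0.0864).

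Wild-type library 1 stood out in this group of genes. It was the highest wild-type library for 21 of the 24, but for 4 of the 10 caudal and retinoic acid genes, and it was the lowest wild-type library for Cdx2. Without it, 3 of the 24 rose: Eomes (1.77 ± 0.23, adjusted p = 0.00273), Sp5 (1.46 ± 0.34, adjusted p = 0.0206) and Wnt8a (1.64 ± 0.53, adjusted p = 0.0414). With DESeq2 or limma on all libraries Eomes alone rose. Cdx2 without that library was at −5.50 (adjusted p = 0.000794). Ts1Cje library 2 was the highest of its group for 6 of the 10 genes and 16 of the 24.

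**Figure D4:**
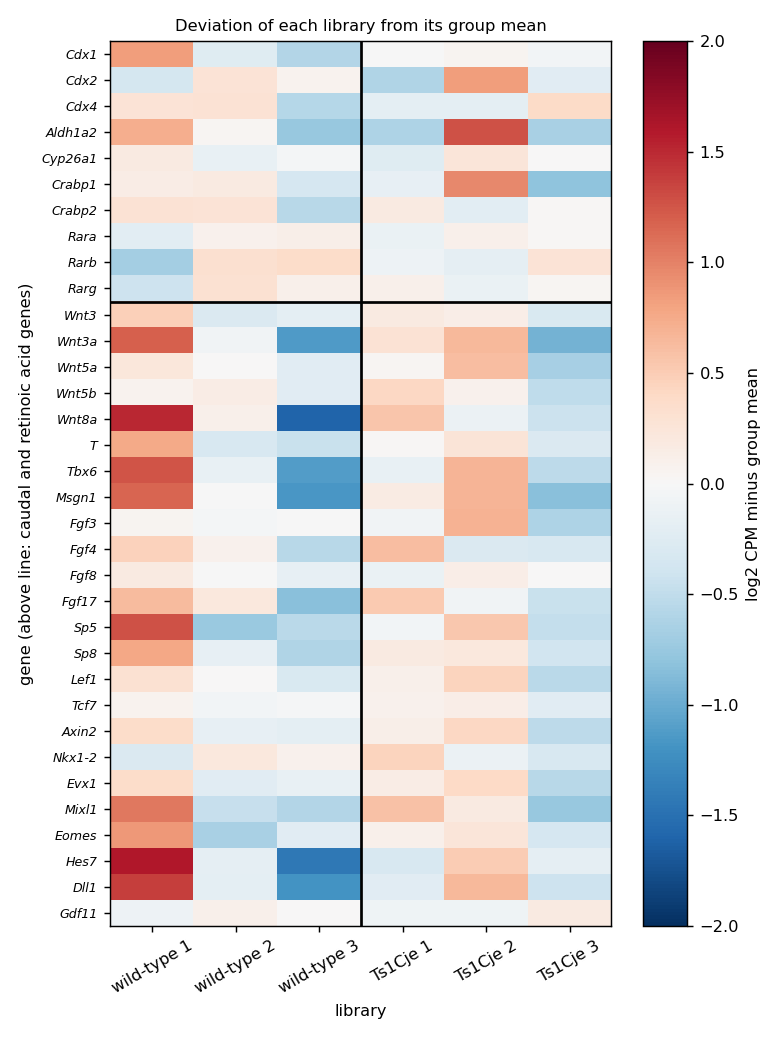
Log2 CPM of each library minus its group mean for the 10 caudal and retinoic acid genes (above the black line) and the posterior growth zone genes (below it), with wild-type libraries left of the vertical line. Wild-type library 1 is the highest wild-type library in 21 of the 24 lower rows, and Ts1Cje library 2 is the highest Ts1Cje library in 16 of them.

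Targets known for the caudal factors moved in both directions. Of 39 Hox genes, 25 were tested, of which 24 fell and 1, Hoxc13, rose (2.15 ± 0.46). Of these 25, 14 passed the filter through wild-type alone, with no Ts1Cje library past the minimum count, so only a fall could be called for them. Of the other 11, 10 fell and Hoxc13 rose. Among paralogues 1 to 3, 7 of 8 tested genes passed the minimum in a Ts1Cje library, and all 7 fell, against 3 of 15 among paralogues 4 to 9, where all 3 fell. Of 11 genes known as intestinal targets of Cdx2, 7 were tested, 4 rose, 0 fell and 3 did not pass. Hnf4a (83, 92 and 75 counts against 573, 406 and 776) rose by 2.83 ± 0.20 and Vil1 by 1.73 ± 0.34, and both are also known from visceral endoderm. Lgals4 rose by 1.02 ± 0.28, and Isx went from 0, 0 and 2 counts to 13, 14 and 18. Isx passed the filter through Ts1Cje alone, so only a rise could be called for it. Muc2, an intestinal mucin gene, was at 10, 11 and 14 counts against 2, 6 and 5 without overlap, and did not pass (−1.37 ± 0.53, adjusted p = 0.0603). Of 15 trophoblast genes, 10 were tested, 3 rose (Krt7, Ascl2 and Sox21) and 3 fell (Hand1, Plac1 and Psg17). Among the listed genes, Elf5 had at most 4 counts in any library, Tpbpa at most 1 and Prl3d1 0, whereas Tead4 (507 to 772 counts), Gata3 (61 to 152) and Tfap2c (58 to 149) were present in all 6 libraries and did not pass. Hand1, a trophoblast gene that lateral mesoderm also expresses, fell by 5.10 ± 0.42.

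Genes beside the caudal and retinoic acid genes moved in both directions, as did all tested genes, of which 23.3% rose and 20.5% fell. Within 1 Mb of Cdx2, 16 genes were tested, of which 3 rose and 4 fell, with a median of −0.10, and beside Aldh1a2 3 of 14 rose and 3 fell (median −0.19). Near Cdx4, 6 of 17 rose and 1 fell (median 0.52), and the count that rose was 3 without wild-type library 3 or Ts1Cje library 3, while 2 fell without wild-type library 3. Around Cyp26a1, which was not called, 11 of 20 rose and 3 fell (median 0.65). Of these 3, 0 were called without wild-type library 2 and 1 without wild-type library 3 or Ts1Cje library 1. By start, the nearest called gene to each caudal factor had fallen, and the nearest called rise lay farther off. Urad, whose start lies 14.2 kb from that of Cdx2 on the same strand, was read 19, 23 and 27 times in wild-type and never in Ts1Cje. Urad passed the filter through wild-type alone, so only a fall could be called for it. Taking 3 counts over the Ts1Cje group as the most that a count of 0 allows, its level was at least 22.5-fold lower. Pdgfrb, 26.3 kb from Cdx1, fell by 4.82 ± 0.54, and Chic1, 35.1 kb from Cdx4, by 1.38 ± 0.11. The nearest rises were Tsix, 110 kb from Cdx4 (2.24 ± 0.31), Flt1, 261 kb from Cdx2 (1.51 ± 0.07), and Camk2a, 93.2 kb from Cdx1 (1.16 ± 0.24). Within 1 Mb of Cdx1, 6 of 24 tested genes rose and 7 fell.

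**Figure D5:**
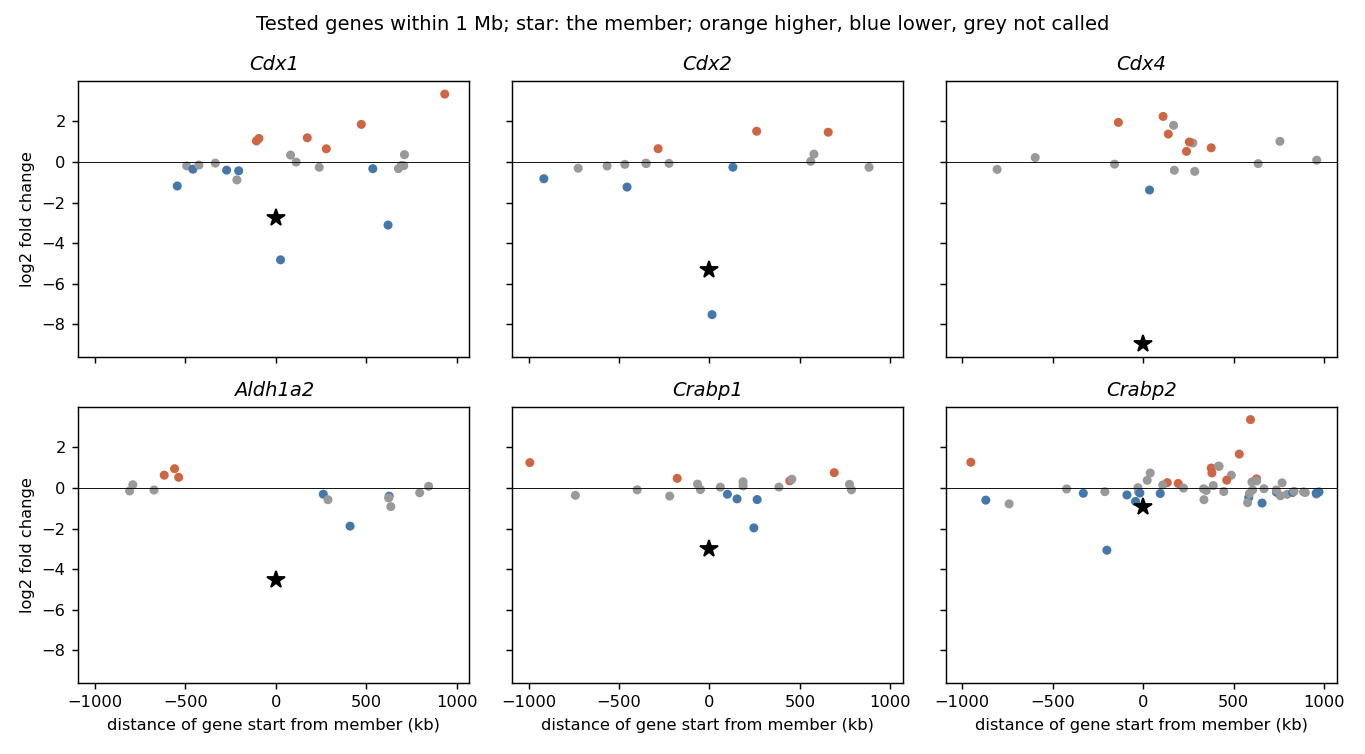
Log2 fold change of each tested gene within 1 Mb of each of the 6 genes that fell, against the distance of its start in kb, with the gene itself as a star. The stars of Cdx2, Cdx4 and Aldh1a2 lie far below nearly all of their neighbours, of which Urad beside Cdx2 is the exception.

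For each of the 5 genes that fell most, the 3 protein-coding genes with the most similar profile were found, as the smallest root mean square difference in centred log2 CPM over the 6 libraries among 13804 genes. The profile spans both genotypes, so a gene similar to one that fell far had itself to fall. Its fold change is thus part of the choice and no separate result. For Cdx2 they were Unc5c (0.252), Hand1 (0.307) and Sox18 (0.400), with log2 fold changes of −5.08, −5.10 and −7.33. For Cdx4 they were Hoxb8 (0.756), Hoxb6 (0.788) and Sox18 (0.826), and for Aldh1a2 Scube1 (0.479), Osr1 (0.485) and S1pr3 (0.548). Sox18, Hoxb8 and Hoxb6 passed the filter through wild-type alone. Crabp1 was close to Wnt2 (0.195) and Dusp2 (0.212), and Cdx1 to Dgkg (0.262), Scn9a (0.266) and Car3 (0.268). The differences were smaller for Crabp1 than for Cdx4, whose counts in Ts1Cje were at the limit of detection.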

How the data were processed

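Poly(A) RNA from 3 Ts1Cje and 3 wild-type libraries was sequenced. The authors deposited raw counts per gene (mm10) and, separately, TPM values for the same libraries. The submitters' processing notes name HISAT2 2.1.0 and featureCounts 1.6.3, beside Trimmomatic 0.38 and FastQC 0.11.7. How they were run, and on which strand reads were counted, is not given in the sources used here. For 11997 genes above 50 counts, deposited TPM and counts gave the same ratio between libraries within 0.001.

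Counts were analysed in R 4.3.3 with edgeR 4.0.16: filterByExpr (minimum count 10, total 15), TMM scaling, robust quasi-likelihood test without covariates, and Benjamini-Hochberg adjustment over 17315 genes, with a threshold of 0.05. Log2 fold changes give Ts1Cje relative to wild-type. Their SE is the absolute value over the square root of F. CPM are TMM-scaled; TPM served to compare genes. The fit code was tried on simulated data with the same spread for every gene and few changed genes. That trial checks the code and not the calls made here. Intervals are binomial on counts pooled over libraries, so they cover counting error only. Reads carry no molecular identifiers, so even that error may be understated. Alternatives used DESeq2 1.42.0 and limma 3.58.1.

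All 10 genes are named. Listed genes that passed could be named, largest first, and others to complete a list. Urad, Pdgfrb, Chic1, Tsix, Flt1 and Camk2a were chosen after their values were seen. Members and lists were chosen with earlier results of these data known. The octamer and its table of genes were added after the data were seen. Some listed genes are counted in their lists but not reported singly here.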

Additional observations from a re-analysis of the deposited data

How the results depend on the processing

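Cdx2, Cdx4, Aldh1a2 and Crabp1 remained lower in all 15 alternatives, and Cdx1 in all 14 that tested it; a mean log2 CPM of at least 1 left Cdx1 out. Of the 10 genes, 6 were called lower, 5 to 7 over the alternatives, and 0 higher, but 1 with no filter on low counts, where Cyp26a1 passed at 0.21. Rarg passed at −0.45 with DESeq2 and at −0.45 with no filter. Leaving out 1 library gave log2 fold changes of −3.03 to −2.15 for Cdx1, −5.86 to −5.06 for Cdx2, −10.85 to −8.52 for Cdx4, −5.49 to −4.12 for Aldh1a2 and −3.64 to −2.68 for Crabp1. It gave −0.63 to −0.28 for Rarg, −1.17 to −0.80 for Crabp2, −0.12 to 0.05 for Rara and −0.44 to 0.01 for Rarb. Rara turned positive without wild-type library 2 (0.02), wild-type library 3 (0.04) or Ts1Cje library 1 (0.048), and Rarb without wild-type library 3 (0.0053), and none of these passed. The segment dosage was 0.45 with upper-quartile scaling and 0.55 with the mean log2 CPM filter; the cause was not tested. That filter tested fewer Hox genes, of which 14 were lower and 0 higher.

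Same-numbered lots deviated together with r of 0.219, 0.059 and 0.202 across 17315 genes, against −0.198 to 0.039 for the other pairs. Each library thus correlated best with its own number. The labels do not say that a lot number is a shared batch, so the main fit did not pair the samples. With the lot number as a replicate block, 4361 genes were higher and 3965 lower, against 4032 and 3547, and 6 of the 10 genes were lower. Cdx4 at 0 to 1 counts and Cdx1 at 3 counts per Ts1Cje library limit the precision of their fold changes.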
